A study of Caenorhabditis elegans with 2 samples.

Results

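Divergent shared promoters are stretches of DNA from which a gene on the plus strand and a gene on the minus strand are both read, in opposite directions. Of 3331 ATTF-5 peaks in whole *Caenorhabditis elegans* young adults, 599 (18.0%) had their summit in such a stretch. A peak was counted here when at least 1 protein-coding gene on each strand had its annotated 5′ end close to the summit, with the summit no more than 1000 bp upstream or 200 bp downstream of it. A further 1292 peaks lay in the promoter window of genes of 1 strand alone and are called one-sided promoter peaks, and 1440 lay outside every promoter window. Divergent shared promoters thus held 31.7% of the 1891 promoter peaks.

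The peaks came from chromatin immunoprecipitation followed by sequencing (ChIP-seq) with an antibody against GFP, in 1 group of 2 biological replicates numbered 1 and 3. All animals were of strain OP724, which carries the unc-119(tm4063) allele and the integrated transgene wgIs724, with attf-5::TY1::EGFP::3xFLAG and unc-119(+). They were young adults of mixed sex, 66 hours of age, synchronised by starving L1 larvae after bleaching. The antibody entry of the labels names attf-5, whereas their description names anti-GFP. The tagged protein comes from a transgene in 1 strain, and no untagged strain, second condition or read depth was part of the files used here, so no test between conditions was possible. Each region has a signal value, the authors' measure of enrichment on their own scale, made with a control, and peaks are regions that passed the authors' reproducibility threshold. Signal values of the peaks are on the scale of the pooled alignments and those of the replicates on their own, lower scale.

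ATTF-5 is named for the AT-hook, a short protein motif known for contacting the minor groove of AT-rich DNA. In the compact genome of *C. elegans* many genes lie head to head, with their 5′ ends facing a common stretch of intergenic DNA, while others lie in operons, in which several genes are read from a promoter upstream of the first. Many nematode transcripts are trans-spliced, so an annotated 5′ end often marks the start of the mature message and not that of transcription, and distances below are distances to annotated 5′ ends.

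The DNA under the strongest of these peaks is given first, because its base composition is taken up again below. Each sequence holds 60 bp on either side of the summit, on the plus strand of ce11 (WBcel235) from the RefSeq genome, and overlaps no annotated exon. The strongest peak of all, at K01G5.10/tasp-1, is not shown because its window reaches an exon, and neither are some others of the strongest. Pairs are written with the minus-strand gene first, so the minus-strand gene reads to the left and the plus-strand gene to the right. Capitals mark ACGCAG and CGGCAG on either strand, which were picked out after these sequences had been seen.
drr-2/set-16 (chrIII:13643676-13643796): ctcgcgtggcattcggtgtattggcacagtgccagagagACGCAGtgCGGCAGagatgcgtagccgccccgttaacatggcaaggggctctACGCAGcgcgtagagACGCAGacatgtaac
rpl-20/Y17G9B.5 (chrIV:4750003-4750123): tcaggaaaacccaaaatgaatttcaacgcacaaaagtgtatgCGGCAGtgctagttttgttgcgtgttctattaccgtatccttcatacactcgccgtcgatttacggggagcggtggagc
Y71H2AM.20/nduc-2 (chrIII:2785993-2786113): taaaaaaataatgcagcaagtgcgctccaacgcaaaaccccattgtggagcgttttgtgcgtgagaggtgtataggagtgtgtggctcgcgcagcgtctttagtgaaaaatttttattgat
rpl-15/K11H12.8 (chrIV:654863-654983): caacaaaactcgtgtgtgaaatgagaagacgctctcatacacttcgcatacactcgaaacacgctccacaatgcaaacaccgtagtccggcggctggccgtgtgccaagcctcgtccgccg
iff-2/F54C9.14 (chrII:8561381-8561501): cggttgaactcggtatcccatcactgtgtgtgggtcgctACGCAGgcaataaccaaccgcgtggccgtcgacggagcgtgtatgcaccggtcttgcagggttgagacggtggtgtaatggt
larp-1/wip-1 (chrIII:5018261-5018381): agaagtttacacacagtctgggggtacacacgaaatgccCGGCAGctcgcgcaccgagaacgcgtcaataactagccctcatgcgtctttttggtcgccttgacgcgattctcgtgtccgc
ecps-1/atx-2 (chrIII:10460692-10460812): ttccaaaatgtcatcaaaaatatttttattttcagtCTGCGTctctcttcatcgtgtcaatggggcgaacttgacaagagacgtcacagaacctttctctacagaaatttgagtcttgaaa
tbb-1/rib-2 (chrIII:10742621-10742741): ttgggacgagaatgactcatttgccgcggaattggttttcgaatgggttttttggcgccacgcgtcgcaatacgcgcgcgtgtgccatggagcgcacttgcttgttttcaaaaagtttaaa
Y77E11A.7/jtr-1 (chrIV:1420241-1420361): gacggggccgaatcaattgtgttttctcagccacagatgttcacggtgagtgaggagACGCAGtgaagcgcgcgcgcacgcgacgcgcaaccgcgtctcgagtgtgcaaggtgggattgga

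In 6 of these 9 windows at least 1 of the marked words occurred. At drr-2/set-16 ACGCAG occurred 3 times and CGGCAG once. AT content ranged from 39.7% at drr-2/set-16 and at Y77E11A.7/jtr-1 to 62.8% at ecps-1/atx-2. The dinucleotide CG occurred 15 times at Y77E11A.7/jtr-1 and 4 times at ecps-1/atx-2.

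The strongest ATTF-5 peak of the data lay in a divergent shared promoter, between K01G5.10, which encodes a haloacid dehalogenase-like hydrolase, and tasp-1, a homolog of the protease taspase. Its signal was 1487 in replicate 1 and 1361 in replicate 3, and 2844 in the pooled scale. The second strongest lay between drr-2, which encodes an RNA-binding protein, and set-16, a histone H3 lysine methyltransferase of the MLL type. Its signal was 998 in replicate 1 and 928 in replicate 3. Both peaks ranked first and second in each replicate. Of the 20 strongest peaks of the whole list, 12 lay in divergent shared promoters, and 7 were one-sided promoter peaks. Of the 100 strongest, 42 lay in divergent shared promoters, 39 were one-sided promoter peaks and 19 lay outside promoter windows. Of all 3331 peaks, 599 lay in divergent shared promoters, 1292 were one-sided promoter peaks and 1440 lay outside promoter windows. The one-sided count was thus near its share of all peaks.

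Several of the strongest peaks lay between a ribosomal protein gene and a gene of another kind. The peak between rpl-20, of the large ribosomal subunit, and Y17G9B.5 had a signal of 756 in replicate 1 and 689 in replicate 3. The peak between rps-19, of the small subunit, and hsr-9, which encodes a protein related to a DNA damage response factor, had 671 in replicate 1 and 659 in replicate 3. For rpl-15 and K11H12.8 the values were 578 in replicate 1 and 556 in replicate 3. These 3 pairs gave similar values in both replicates, with replicate 1 the higher. The peak between rpl-12 and lin-54, whose product is a DNA-binding subunit of the DREAM repressor complex, had 519 in replicate 1 and 493 in replicate 3. The peak between rps-20 and ekl-4 had 449 in replicate 1 and 383 in replicate 3, and that between rpl-7A and set-21, which encodes a SET domain protein, had 369 in replicate 1 and 361 in replicate 3. Summits at rpl-12/lin-54 and rpl-7A/set-21 lay nearer to the ribosomal protein gene, at offsets of −36 and −75 bp, as did that at rpl-15/K11H12.8, and those at rpl-20/Y17G9B.5, rps-19/hsr-9 and rps-20/ekl-4 nearer to the other gene.

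Other strong pairs joined genes of translation, the cytoskeleton and RNA processing. The peak upstream of iff-2, a translation factor gene of the eIF5A family, and F54C9.14 had 512 in replicate 1 and 582 in replicate 3, with the higher value in replicate 3. At larp-1, an RNA-binding regulator of translation, and wip-1, a WASP-interacting protein of the actin cytoskeleton, the signal was 470 in replicate 1 and 462 in replicate 3. At tbb-1, a beta-tubulin gene, and rib-2, an exostosin-like glycosyltransferase gene, it was 478 in replicate 1 and 424 in replicate 3. These pairs lay within the 11 strongest divergent shared promoter peaks. The peak between npp-14, a nuclear pore gene, and cel-1, the mRNA capping enzyme gene, had 440 in replicate 1 and 444 in replicate 3. The pair of ecps-1, encoding a protein related to the proteasome component Ecm29, and atx-2, the ataxin-2 homolog, had 2 peaks of nearly the same height, at an offset of −201 bp from ecps-1 and of −47 bp from atx-2. The first had 485 in replicate 1 and 448 in replicate 3, and the second 460 in replicate 1 and 404 in replicate 3. At the other end of the list the weakest peak named, between algn-14 and M02B7.2, had 40.3 in replicate 1 and 53.2 in replicate 3.

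Signal was higher at divergent shared promoters than at one-sided promoters in both replicates. The median was 96.3 at divergent shared promoters and 78.3 at one-sided promoters in replicate 1, a ratio of 1.23, and 89.0 at divergent shared promoters and 72.5 at one-sided promoters in replicate 3, also a ratio of 1.23. In the thresholded list it was 185.4 at divergent shared promoters, with quartiles of 130 and 280, against 145.9 at one-sided promoters and 130 outside promoters, a log2 ratio of 0.35 over one-sided promoters. The 2 distributions overlapped over most of their range. Of the divergent shared promoter peaks, 405 (67.6%) were in the stronger part of all peaks cut at the median, against 52.01% of one-sided promoter peaks. A summit within 100 bp was found in both replicates for 583 of the 599 (97.3%), a share that the authors' selection for reproducible regions sets in part. Spearman's rho between the replicates' signals was 0.849 over these peaks and 0.744 over one-sided promoter peaks, given as a description over regions of the same 2 libraries. In 29 of the 583 divergent shared promoter peaks found in both replicates, the ratio of the replicates' signals differed by more than 2-fold from its median. The same held for 74 of 1241 one-sided promoter peaks and 208 of 3182 peaks of all kinds.

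**Figure D1:**
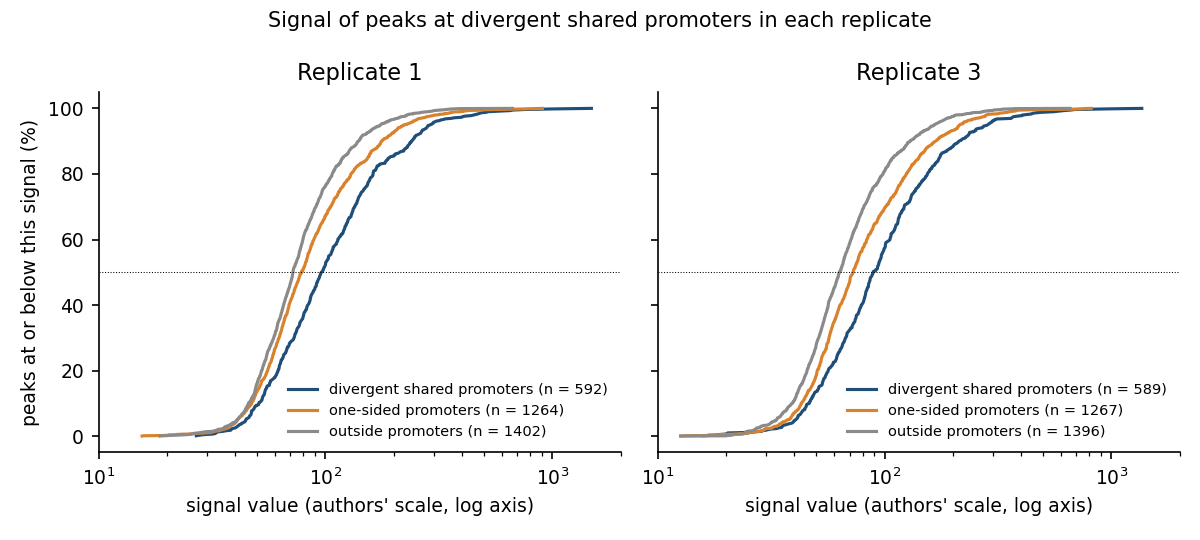
Cumulative share of peaks (vertical axis, percent) at or below each signal value (horizontal log axis, authors' scale) in replicate 1 and replicate 3, for divergent shared promoter peaks, one-sided promoter peaks and peaks outside promoters. In both panels the curve of divergent shared promoters lies furthest to the right over most of the range, crossing the 50% line at 96.3 in replicate 1 and 89.0 in replicate 3.

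Nearly all of these peaks lay between genes in the head-to-head arrangement, as did nearly all divergent pairs with or without a peak. For the nearest gene of each strand, 595 of the 599 pairs were head to head and 4 had overlapping 5′ ends. Among all 3072 divergent pairs, 52 had coinciding or overlapping 5′ ends, so the rule sets most of this arrangement. The distance between the 5′ ends of head-to-head pairs had a median of 524 bp, with quartiles of 331 and 772.5 bp, and ran from 12 to 1831 bp. The summit lay between the 5′ ends in 541 of the 595 (90.9%) and downstream of one of them in 54. Of the 541, 141 lay in the part of the interval next to the minus-strand gene, 238 (44.0%) in the middle part and 162 in the part next to the plus-strand gene, where the interval was cut into 3 equal parts. For 5′ ends more than 1000 bp apart, the rule keeps the summit away from both of them. It thus sets part of this division, and that part was not tested. The median offset was −142 bp from the nearer 5′ end and −355 bp from the farther one, where negative values lie upstream. One-sided promoter peaks had a median offset of −237 bp from their nearest 5′ end, but the nearer of 2 offsets is smaller by its construction. The nearer gene was on the plus strand for 327 peaks and on the minus strand for 272.

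**Figure D2:**
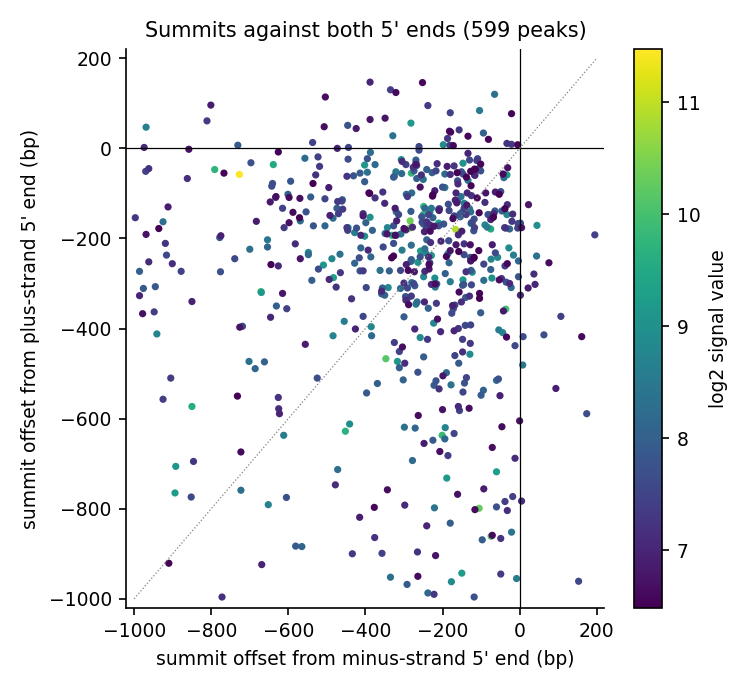
Summit offset from the 5′ end of the nearest plus-strand gene (vertical axis, bp) against that of the nearest minus-strand gene (horizontal axis, bp) for all 599 peaks, coloured by log2 signal. Points are densest at short offsets upstream of both genes, where 206 peaks lie within 300 bp of both 5′ ends, and the dotted line marks equal offsets.

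A narrow interval can put 1 peak close to both genes. The pair of F32D8.14, a YIPF family gene, and F32D8.5 was the closest, with 12 bp between the 5′ ends, and had a signal of 92.0 in replicate 1 and 74.8 in replicate 3. At ears-2, a glutamyl-tRNA synthetase gene, and uncp-18 the 5′ ends were 92 bp apart and the signal was 291 in replicate 1 and 290 in replicate 3. The most distant pair, egrh-2 and lep-2, had its 5′ ends 1831 bp apart, with the summit at offsets of −910 and −921 bp, and a signal of 44.1 in replicate 1 and 53.1 in replicate 3. Distance alone did not order these signals. At the limit of the window, the summit at C02F5.10/knl-1 had an offset of −997 bp from C02F5.10 and was kept, and that at idha-1/lmd-1 had one of −1004 bp from lmd-1 and was not. At the downstream limit, Y32H12A.8/W03A5.2 was kept at 195 bp and F41F3.3/F41F3.8 was not at 208 bp.

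Seen from the genes, 3072 pairs of protein-coding genes had overlapping promoter windows on opposite strands, and 621 of them (20.2%) held at least 1 peak in the overlap. A summit in a window shared by more than 2 genes counts for several pairs. Peaks occurred at 28.6 per 100 kb in the sequence shared by both strands and at 6.65 per 100 kb in one-sided promoter sequence, a ratio of 4.30. The ratio was 4.15 for the strongest regions of replicate 1 and 4.06 for those of replicate 3. When only genes with no same-strand gene ending within 500 bp upstream were used, which leaves out most genes inside operons, the densities were 30.4 per 100 kb in shared and 6.61 per 100 kb in one-sided sequence. The densities depended on the window chosen. They were 60.003 per 100 kb in shared and 10.8 in one-sided sequence with windows of 500 bp upstream and 100 bp downstream, and 15.8 in shared and 4.62 in one-sided sequence with windows reaching 2000 bp upstream. Shared sequence lies by definition in the windows of at least 2 genes, whereas one-sided sequence can lie in the window of 1. A higher density per length is thus set in part by the rule. The 2 kinds of sequence also differ in their distance from 5′ ends. The part of either in the ratio was not tested. Among the 2451 pairs without a peak, 559 (22.8%) had a region of the unthresholded pooled list in the overlap, with a median signal of 42.9, against 188.7 for pairs with a peak.

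The share of pairs with a peak was highest at intermediate distances. It was 14.8% for 5′ ends up to 100 bp apart, 22.2% from 100 to 200 bp, 28.4% from 200 to 300 bp and 38.2% (84 of 220) from 300 to 400 bp. Beyond that it was 34.8% up to 600 bp, 31.6% up to 800 bp, 21.4% up to 1000 bp, 12.01% up to 1500 bp and 1.88% up to 2000 bp. The length of the overlap changes with distance too, and per length the highest density was also found from 300 to 400 bp. It was 50.7 summits per 100 kb there, against 32.5 up to 100 bp and 8.65 from 1500 to 2000 bp. The overlap takes in up to 200 bp downstream of each 5′ end, which makes up most of it for the closest pairs. Its median length was 468 bp for 5′ ends up to 100 bp apart. The part of this in the lower values at short distances was not tested, so the distance of highest density depends on the rule. For 5′ ends more than 1000 bp apart, the overlap leaves out the sequence next to both of them. The low values at those distances are thus set in part by the rule, and that part was not tested. At least 1 gene headed a run of closely spaced same-strand genes, as in an operon, in 59.4% of pairs with a peak and 34.3% of pairs without one. The median distance also differed, at 534 bp for pairs with a peak and 926 bp for pairs without, a difference that the rule affects in the same way.

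**Figure D3:**
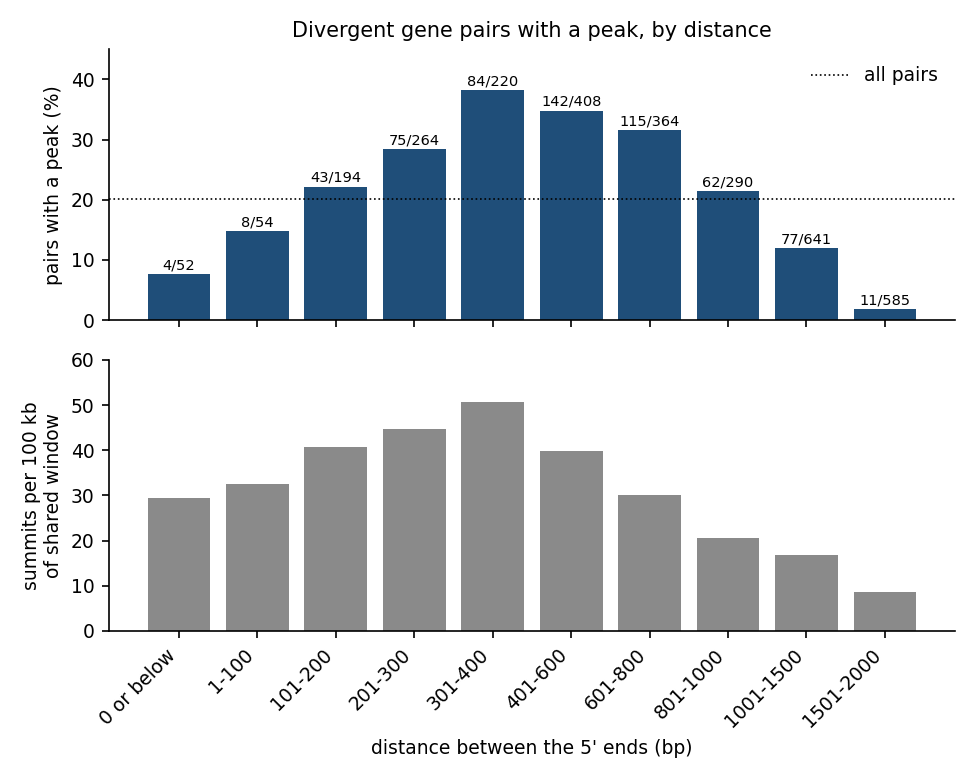
Share of divergent pairs with a peak (upper panel, percent, with the numbers of pairs) and summits per 100 kb of shared window (lower panel) by distance between the 5′ ends in bp. Both are highest from 300 to 400 bp, at 38.2% and 50.7 per 100 kb, and the dotted line is the 20.2% of all pairs.

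A pair seldom held more than 1 summit. Of the 621 pairs with a peak 22 had 2 summits and none had 3 or more. At F29B9.11, a cytochrome c oxidase subunit gene, and jmjd-1.2, a histone demethylase gene, the stronger summit had 305 in replicate 1 and 252 in replicate 3, and the weaker 134 in replicate 1 and 63.6 in replicate 3. At aka-1 and ubc-6, a ubiquitin-conjugating enzyme gene, the stronger had 236 in replicate 1 and 224 in replicate 3 and the weaker 130 in replicate 1 and 96.7 in replicate 3. In both pairs the order of the 2 summits was the same in each replicate.

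Genes of most basic cell functions were more often in a pair with a peak than all genes of divergent pairs. Over all 5656 genes in divergent pairs, 1199 (21.2%) belonged to a pair with a peak. Of the 53 ribosomal protein genes in divergent pairs, 45 (84.9%) did. The shares were 66.7% (18 of 27) for nuclear pore and transport genes, 61.8% (21 of 34) for splicing genes, 58.3% (21 of 36) for translation factors and aminoacyl-tRNA synthetases, 57.1% (20 of 35) for chaperones and 56.7% (17 of 30) for chromatin regulators. They were 56.0% for the respiratory chain, 55.2% for the transcription machinery, 53.3% for mitochondrial ribosomal proteins, 48.1% for vesicle transport and 41.7% for the proteasome. Cell cycle genes, with 17 of 46 (36.96%), ubiquitin genes, with 9 of 30, DNA repair genes, with 5 of 17, and small RNA pathway genes, with 6 of 23 (26.1%), stood closer to the share of all genes. The vacuolar ATPase, with 3 of 9, and autophagy, with 2 of 4, had few genes in divergent pairs. All 16 lists of basic functions together held 481 of the 5656 genes in divergent pairs and 259 of the 1199 in pairs with a peak. The share of list genes in a pair with a peak was thus 53.85%. Of the 621 pairs with a peak 382 had no gene on the lists, against 2561 of all 3072 pairs. These lists are by gene symbol and miss renamed genes such as nduc-2, a respiratory chain gene.

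Several families of receptors, secreted proteins and structural proteins were below the share of all genes. Of 318 chemoreceptor genes in divergent pairs 10 had a peak in their pair (3.14%), or 9 of 313 without a few genes of other kinds that the symbol pattern takes in. The counts were 1 of 81 C-type lectin genes, 3 of 39 cuticle collagen genes and 5 of 46 nuclear hormone receptor genes. Homeobox genes, with 2 of 10, were near the share of all genes. None of 17 neuropeptide and insulin genes and none of 14 major sperm protein genes had one. The strongest peak beside a chemoreceptor gene, between rsr-1, which encodes a PWI domain protein, and sri-5 had 259 in replicate 1 and 184 in replicate 3, with the summit at offsets of −245 bp from sri-5 and −487 bp from rsr-1. Of 5 germline marker genes in divergent pairs 1 had a peak, and of 3 intestine and 1 muscle marker genes none. Since whole animals were used, the cells that carry the binding were not resolved.

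**Figure D4:**
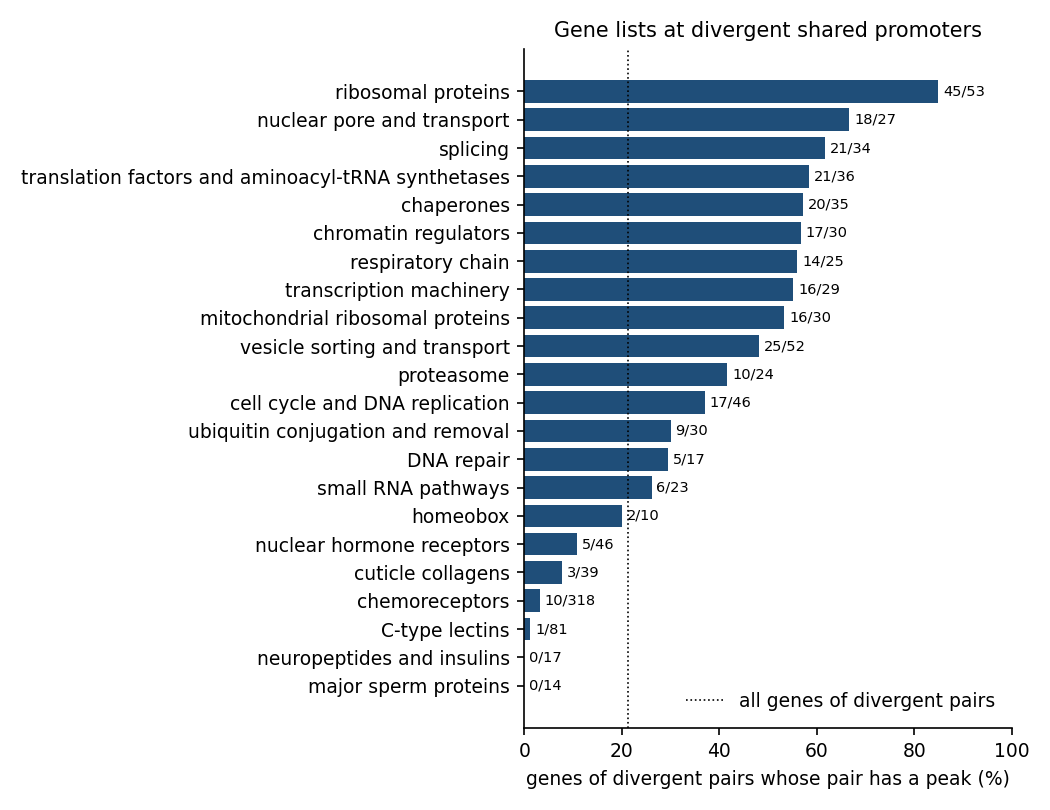
Share of the genes in divergent pairs whose pair has a peak (horizontal axis, percent) for each gene list with at least 10 such genes, with the counts beside the bars. Ribosomal protein genes are at the top with 84.9%, major sperm proteins and neuropeptides at 0, and the dotted line is the 21.2% of all genes in divergent pairs.

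The number of basic-list genes in a pair went with the share of pairs that had a peak. It was 62.7% (32 of 51) for pairs with 2 such genes, 45% (207 of 460) for pairs with 1 and 14.9% (382 of 2561) for pairs with none. The median signal was 211.9 with 2, 215.0 with 1 and 171.4 with none. In the 198 peaks with 1 basic-list gene, that gene was the nearer of the pair in 91. The ribosomal protein gene was the nearer in 15 of 39 and the nuclear pore gene in 4 of 19, whereas the cell cycle gene was the nearer in 12 of 16.

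In a few pairs both genes were of the same list. The splicing factor genes rsp-2 and rsp-1, which encode arginine/serine-rich proteins, shared a peak of 279 in replicate 1 and 297 in replicate 3, with the summit at offsets of −239 and −168 bp. A further 3 such pairs were of ribosomal protein genes. The peak at rps-10/rpl-24.1 had 108 in replicate 1 and 151 in replicate 3, that at rpl-39/rps-30 had 127 in replicate 1 and 100.3 in replicate 3, and that at rps-14/rpl-36 had 52.5 in replicate 1 and 110 in replicate 3. Of these 3, the replicates differed by more than 2-fold at rps-14/rpl-36. At orc-5, an origin recognition complex gene, and cyb-1, a cyclin B gene, the signal was 107 in replicate 1 and 81.4 in replicate 3.

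Named pairs with at least 1 gene of translation, transport, replication, protein folding or RNA pathways included the following. The translocon genes sec-61.B and trap-3, which serve protein entry into the endoplasmic reticulum, shared a peak of 298 in replicate 1 and 306 in replicate 3. The elongation factor gene eef-1A.1 and the replication factor gene rfc-4 shared one of 264 in replicate 1 and 248 in replicate 3. The nuclear pore gene npp-3 and the topoisomerase gene top-2 shared one of 273 in replicate 1 and 233 in replicate 3. All lay above the median of divergent shared promoter peaks in both replicates. The ribosomal protein genes rpl-28 and mrpl-49, of the cytoplasmic and the mitochondrial ribosome, shared one of 235.4 in replicate 1 and 203 in replicate 3. The fibrillarin gene fib-1, for ribosomal RNA methylation, and mut-15, of the small RNA pathways, shared one of 230 in replicate 1 and 199.8 in replicate 3. The genes of 3 subunits of the cytosolic chaperonin, cct-1, cct-7 and cct-8, each had a peak in a pair with a gene of another kind, with values of 249, 289 and 244 in replicate 1 and 212, 271 and 247 in replicate 3.

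Divergent shared promoter peaks were unevenly spread over the chromosomes. Of the pairs on chromosome I 27.5% had a peak, against 19.1% for II, 28.0% for III, 19.0% for IV, 14.1% for V and 12.1% for X. Divergent shared promoters held 10.9% of the promoter peaks on X, where there were 24 against 196 one-sided promoter peaks, and between 31.5 and 36.3% on the 5 autosomes. The X chromosome also had 190 divergent pairs, fewer than any autosome. Per length, the density ratio of shared over one-sided sequence was 3.15 on X, from these 24 peaks, and ran from 4.06 to 4.57 on the autosomes. The density in shared sequence was 20.6 per 100 kb on X. That was above the 18.5 on V and below the other autosomes, of which II was the lowest with 27.2. One peak lay within 50 kb of the native attf-5 gene, at trap-2/ile-2, and another within 50 kb of unc-119, at cey-4/vps-50. The transgene holds copies of attf-5 and unc-119 sequence.

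DNA at the summits was poorer in A and T than the DNA around it. AT content within 50 bp of the summit had a median of 53.5% at divergent shared promoters and 53.5% at one-sided promoters, and in the flanks from 150 to 200 bp away 66.0% at divergent shared promoters and 65.0% at one-sided promoters. The median difference was −12.6 percentage points at divergent shared promoters and −10.6 at one-sided promoters, and the summit was the lower in 505 of 599 divergent shared promoter peaks (84.3%). At the midpoints of divergent pairs 200 to 800 bp apart, the median difference was −1.66 points for pairs with a peak and 1.34 points for pairs without one, a smaller difference than at the summits in both cases. When the 599 peaks were ranked by AT content at the summit and cut into 4 groups, the median signal was 280 in the lowest group, 207 and 163 in the next and 140 in the highest. Both replicates gave that order, with 143, 105, 85.1 and 72.5 in replicate 1 and 139.7, 98.2, 77.8 and 67.3 in replicate 3. AT content can affect recovery and amplification of DNA in ChIP-seq, and its part in these values was not tested.

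A and T were also unevenly divided between the strands on the 2 sides of the summit. Sequences were turned so that the nearer gene read to the right. Its 5′ end then lay to the right as well, except where the summit was downstream of it. In the stretch from 50 to 130 bp to the left of the summit, called the far side, T made up 42.1% of A and T at divergent shared promoters. It made up 52.2% there at one-sided promoters. On the side of the nearer gene it made up 57.5% at divergent shared promoters and 59.3% at one-sided promoters. More A on the far side together with more T on the near side was found in 314 of 599 divergent shared promoter peaks (52.4%), 394 of 1292 one-sided promoter peaks (30.5%) and 31.4% of the midpoints of pairs without a peak. The strongest regions of replicate 1 gave 49.8% at divergent shared promoters and 27.8% at one-sided promoters, and those of replicate 3 gave 51.97% at divergent shared promoters and 28.9% at one-sided promoters. Summed over the divergent shared promoter peaks, T was thus the more frequent, on either side, on the coding strand of the gene on that side. Midpoints of pairs without a peak, turned with the plus-strand gene to the right, leaned the same way by less. There T made up 47.5% on the left and 51.9% on the right.

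**Figure D5:**
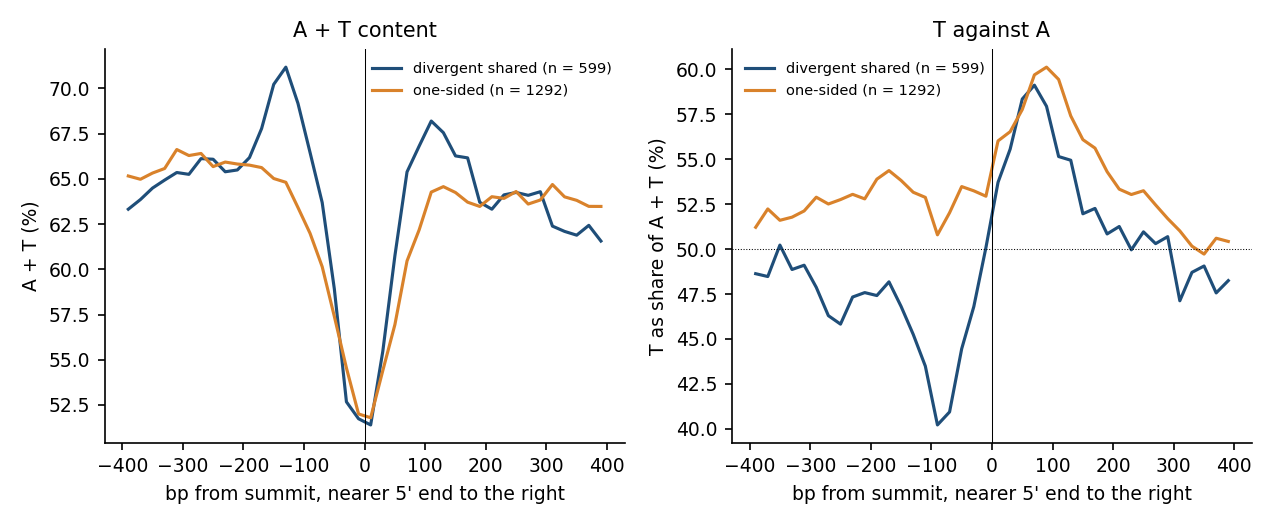
A + T content (left, percent) and T as a share of A + T (right, percent) in 20 bp bins within 400 bp of the summit, for divergent shared and one-sided promoter peaks. Sequences are turned so that the nearer gene reads to the right, which puts its 5′ end to the right unless the summit is downstream of it. A + T content is lowest at the summit, 51.4% in the bin just right of it, and reaches 71.2% at 130 bp to the left at divergent shared promoters, where T is 40.2% of A + T at 90 bp to the left.

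Short sequence words were counted within 100 bp of the summit on both strands. GAGAGA was present at 25.4% of divergent shared promoter peaks and 41.1% of one-sided promoter peaks, against 13.6% of sequences centred 190 bp upstream of genes without a promoter peak. CACGTG was present at 3.67% of divergent shared and 6.81% of one-sided promoter peaks and 3.45% of the upstream sequences. TTTTTT, at 68.0% of divergent shared and 53.6% of one-sided promoter peaks, was near the 69.3% of the upstream sequences at divergent shared promoters. AATT, at 89.0% of divergent shared and 76.7% of one-sided promoter peaks, was present in 92.9% of the upstream sequences. Of the words marked after the sequences were seen, ACGCAG was present at 22.0% of divergent shared and 25.2% of one-sided promoter peaks and 4.84% of the upstream sequences, and CGGCAG at 8.18% of divergent shared and 6.11% of one-sided promoter peaks and 2.79% of the upstream sequences. Without the 100 strongest, from which the words were chosen, the shares at divergent shared promoters were 20.2% for ACGCAG and 7.82% for CGGCAG. GAGACGCAG contains ACGCAG and was present at 8.35% of divergent shared and 13.8% of one-sided promoter peaks and 1.62% of the upstream sequences. GCGCGC, also added, was present at 16.2% of divergent shared and 11.4% of one-sided promoter peaks and 1.91% of the upstream sequences, and at 14.2% of divergent shared promoter peaks without the 100 strongest. The upstream sequences were not matched in base composition. Their median AT content within 50 bp of the centre was 66.3%, against 53.5% at divergent shared and at one-sided promoter peaks. Within 100 bp they held a median of 5 CG, against 11 at divergent shared and 10 at one-sided promoter peaks. The part of base composition in these shares was not tested. A word that is present is not thereby a binding site.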

How the data were processed

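The authors' deposited lists are in narrowPeak format with coordinates in ce11. Per the deposited notes, each replicate list was made from that replicate's alignments and 1 control, and a pooled list used the alignments of both. Reproducibility between them gave the thresholded list. The lists held 30000 regions for replicate 1, 28299 for replicate 3, 30000 in the pooled list and 3331 in the thresholded list. The deposited signal value was used as given, and the authors' −log10 q was used for description only. Nothing was scaled by depth, since the read depth, like the peak caller, is not given in the sources used here.

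Promoter windows were set on the 5′ ends of 19973 protein-coding nuclear genes of Ensembl release 115, and gene products were read from the RefSeq annotation. A replicate value is the signal of the region whose summit lay within 100 bp. Named peaks had a summit in both replicates, with 1 peak for each pair. They were the 25 strongest, the 3 strongest of each list with at least 5 genes in pairs with a peak, pairs with both genes on a list, the 5 pairs with the most peaks (all of whose peaks were used), the 3 closest, the 3 most distant, the 3 weakest and those next to the window limits. Of the 80 pairs so named, the text describes a part, and at least 1 is not reported here. The members, gene lists and words were chosen with earlier results of these data known. Regions are not replicates and there is 1 group, so no p-value was computed. The class assignment and AT content were tested on simulated summits. Python 3.11.15, numpy 2.4.6, pandas 2.3.3, scipy 1.17.1 and matplotlib 3.10.9 were used.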

Additional observations from a re-analysis of the deposited data

How the results depend on the processing

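The log2 signal ratio and the AT difference kept their sign under every alternative tried. Counts, shares, densities and median signals cannot be negative, so their sign says nothing. To leave out a replicate, the 3331 regions of highest signal in the other replicate's list were taken, so their total was fixed. The strongest regions of each replicate given above were chosen in the same way. Without replicate 1 or 3, the number of peaks was 583 and 570 and the log2 signal ratio 0.36 and 0.30. The relative position of the summit between the 5′ ends (0 at the minus-strand gene) was 0.540 and 0.531 against 0.532. The AT difference was −13.5 and −12.5 points. The median signal was 92.9 and 99.7 on the replicates' own scale. Narrower windows, of 500 bp upstream and 100 bp downstream, gave 398 peaks, 25.8% of promoter peaks, 22.0% of pairs, a median signal of 190.4, and 60.003 peaks per 100 kb of shared and 10.8 of one-sided sequence. Windows reaching 2000 bp upstream gave 37.1% of promoter peaks, a median signal of 175.6, a relative position of 0.526, and 15.8 peaks per 100 kb of shared and 4.62 of one-sided sequence. With every transcript's 5′ end the one-sided density was 6.14. Peaks above the median signal gave 37.6% of promoter peaks, 13.7% of pairs, a log2 ratio of 0.10, an AT difference of −14.6 points, and 19.4 peaks per 100 kb of shared and 3.46 of one-sided sequence. The lower log2 ratio there follows a cut on signal itself. AT content within 25 bp gave −16.1 points. The restriction to genes without a close same-strand neighbour, the chemoreceptor count without genes of other kinds and the 4 added words were chosen after seeing the data. No paired analysis was possible because there is 1 group. Neither the read depth nor a control without the tag was used here, so the lower limit of detection is unknown.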
